A study of Heliconius melpomene malleti and Heliconius melpomene plesseni with 96 samples.

Results

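The wing-enriched set described here holds 34 predicted genes of the butterfly Heliconius melpomene whose array signal was higher in the pupal wing than in the pupal eye, while its differences within the wing stayed under set limits. The members were chosen by 3 measured values among 12639 predicted genes, out of 12832 features on the arrays. The mean wing minus eye difference, taken from the medians of 4 pupal days, had to be 1.5 or more on the log2 scale, which is 2.83-fold. The wing medians had to span less than 1.5 over the days, and the mean difference between distal and proximal forewing had to lie between -0.4 and 0.4. The rule would have kept the first 150 genes by wing minus eye, but only 34 met the 3 limits. These values chose the members, so the wing minus eye difference, the distal minus proximal difference and the wing's change over days are described below with no test.

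RNA was taken from pupae of the races malleti and plesseni on days 1, 3, 5 and 7, from 4 pieces of tissue, namely eye, hindwing and the forewing cut into a proximal and a distal section. Each race, tissue and day was measured on 3 arrays, called independent by the submitters, which gives 32 groups and 96 arrays of Cy3-labelled complementary DNA. No mutant allele and no treatment is named for any group, so the groups differ by race, tissue section and age alone as far as the labels say. The sources used here do not say whether animals were pooled or whether sections came from the same pupae, so the spread between arrays may be partly technical.

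The pupal wing is a flat epithelium in which precursor cells form the scales that later carry the colour pattern, together with veins, tracheae and the cuticle of the wing blade. The pupal eye is built of ommatidia, each with photoreceptor neurons, pigment cells and lens-secreting cells. The 2 tissues therefore differ in which cells they hold as well as in what those cells express. In pieces of whole tissue, fewer cells of a type and less RNA per cell cannot be told apart.

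Features carry no gene names in the files inspected, and 0 of the genes in the supplied RefSeq table had a matching identifier. Members are therefore given by scaffold, start and end as in the array design, whose genome build the sources used here do not name, and no role is given to any of them. Marker genes of the eye, the wing or other cell types could not be looked up for the same reason, so the labelled tissues were checked against each other only by similarity between arrays. Signals are log2 intensities after quantile normalization, on which 1.44 to 15.3 was the whole range, and they serve to compare samples for 1 feature, not features with each other.

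By limits set with earlier results of these data known, 12 of the 96 arrays stood apart. Replicate 67, labelled eye of malleti on day 7, had a Spearman correlation of 0.973 with the median of its most similar wing section and of 0.871 with the eye arrays. Replicate 69, labelled proximal forewing of malleti on day 7, had 0.982 with the eye arrays and 0.871 with its most similar wing section. Another 10 arrays were dim, with a median log2 intensity under 5.5, among them replicates 8 and 60 of plesseni eye day 3. Median intensities of the 96 arrays ran from 22.98 to 376. The labels were kept, and results that rest on these arrays are given with and without them.

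Within the set, the wing minus eye difference ran from 1.5 to 4.21 with a median of 1.71, or 2.83-fold to 18.5-fold with a median of 3.27-fold. It was above 0 on every day in all 34 members, at least 1 on every day in 21 and at least 1.5 on every day in 8. The wing medians spanned 0.068 to 1.49 over days and the eye medians 0.18 to 2.16, of which only the first was limited by the rule. The median over members of each array lay between 5.58 and 8.46 in the 72 wing arrays and between 4.81 and 7.40 in the 24 eye arrays. Without replicates 67 and 69 these ranges were 6.43 to 8.46 and 4.81 to 6.31 and no longer overlapped.

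**Figure D1:**
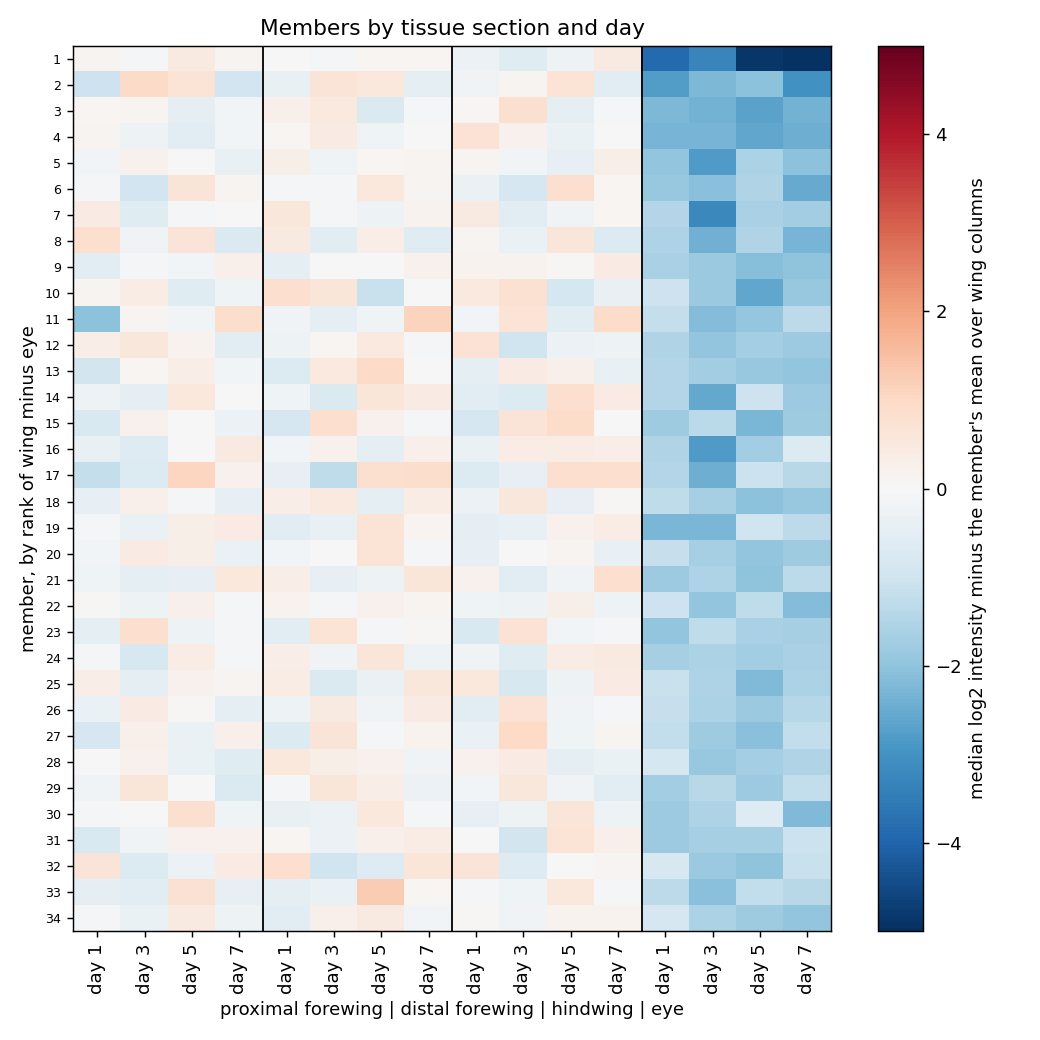
Median log2 intensity of each of the 34 members (vertical axis, ordered by mean wing minus eye) in each tissue section and day (horizontal axis), with the member's mean over the 12 wing columns subtracted; each cell is a median over 6 arrays. The 16 eye and wing medians of a member separate into a pale wing block, limited in its changes by the rule, and a blue eye block, darkest in the member of rank 1.

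The first member by rank, HE670797 113155 to 117101, stood far above the others with a wing minus eye difference of 4.21, against 2.55 for the next. Its wing arrays ran from 8.07 through a median of 10.36 to 11.06 on day 1, from 7.61 through 10.29 to 11.28 on day 3 and from 8.88 through 10.42 to 11.36 on day 5. On day 7 they ran from 5.33 through 10.67 to 11.37, where the lowest was replicate 69. In the eye the arrays ran from 5.04 through 6.59 to 7.51 on day 1, from 6.98 through 7.18 to 7.44 on day 3, from 4.61 through 5.60 to 5.92 on day 5 and from 3.90 through 5.53 to 10.73 on day 7. The array at 10.73 was replicate 67. The wing medians were thus nearly level, while the eye medians were higher on days 1 and 3 than on days 5 and 7.

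For this gene the difference was 4.39 for the proximal forewing, 4.27 for the distal forewing and 4.05 for the hindwing, and 4.04 in malleti and 4.22 in plesseni. The difference was smallest on day 3 at 3.12 and largest on day 7 at 5.14, the widest spread over days in the set at 2.02. With replicates 67 and 69 left out, its 71 wing arrays all lay above its 23 eye arrays, the lowest wing array at 7.61 and the highest eye array at 7.51. Among the 12832 features this was the only one, which is 0.00779% of them, and with all 96 arrays 0.0% of features had such a separation.

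The second member by rank, HE671287 81054 to 115764, had a difference of 2.55 and a wing level that went up and down again. Its wing medians were 6.02, 7.46, 7.38 and 6.03 on days 1, 3, 5 and 7, and its eye medians were 3.92, 4.44, 4.64 and 3.68. Wing and eye were both lower on days 1 and 7 than on days 3 and 5, so the difference stayed between 2.09 and 3.02. On day 1 its 18 wing arrays ran from 5.16 to 7.27 and its 6 eye arrays from 2.76 to 4.87, without overlap.

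The third and the fourth member by rank lie next to each other on scaffold HE672034, with 42324 bases and no other feature between them. HE672034 192659 to 212135 had wing medians of 5.80, 6.20, 5.18 and 5.60 on the 4 days and eye medians of 3.40, 3.29, 2.99 and 3.29. HE672034 126452 to 150335 had wing medians of 6.17, 6.03, 5.59 and 5.89 and eye medians of 3.61, 3.61, 3.32 and 3.47. Both were lowest on day 5 in wing and eye, and the latter had the steadiest difference in the set, 2.27 to 2.56, a spread of 0.29. Their mean eye signals, 3.24 and 3.504, were near the low end of the arrays, with 4.53% and 7.96% of all features lower in the eye. The files used hold no detection calls, so it cannot be said whether either gene was detected in the eye.

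With all days together and the 12 arrays that stood apart left out, 3 members had every wing array above every eye array, against 0.0312% of all features. These were HE670797 113155 to 117101, HE671287 81054 to 115764 and HE672034 126452 to 150335, the last with its lowest wing array at 4.78 and its highest eye array at 4.75. Day by day with all arrays, wing and eye did not overlap in 8 members on day 1 (0.74% of all features), 6 on day 3 (0.53%), 11 on day 5 (1.31%) and 0 on day 7 (0.0623%). Without replicates 67 and 69 the day 7 count was 24 (6.48% of all features). The rule chose members by the same difference, so these counts describe the set and nothing is read from them.

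**Figure D2:**
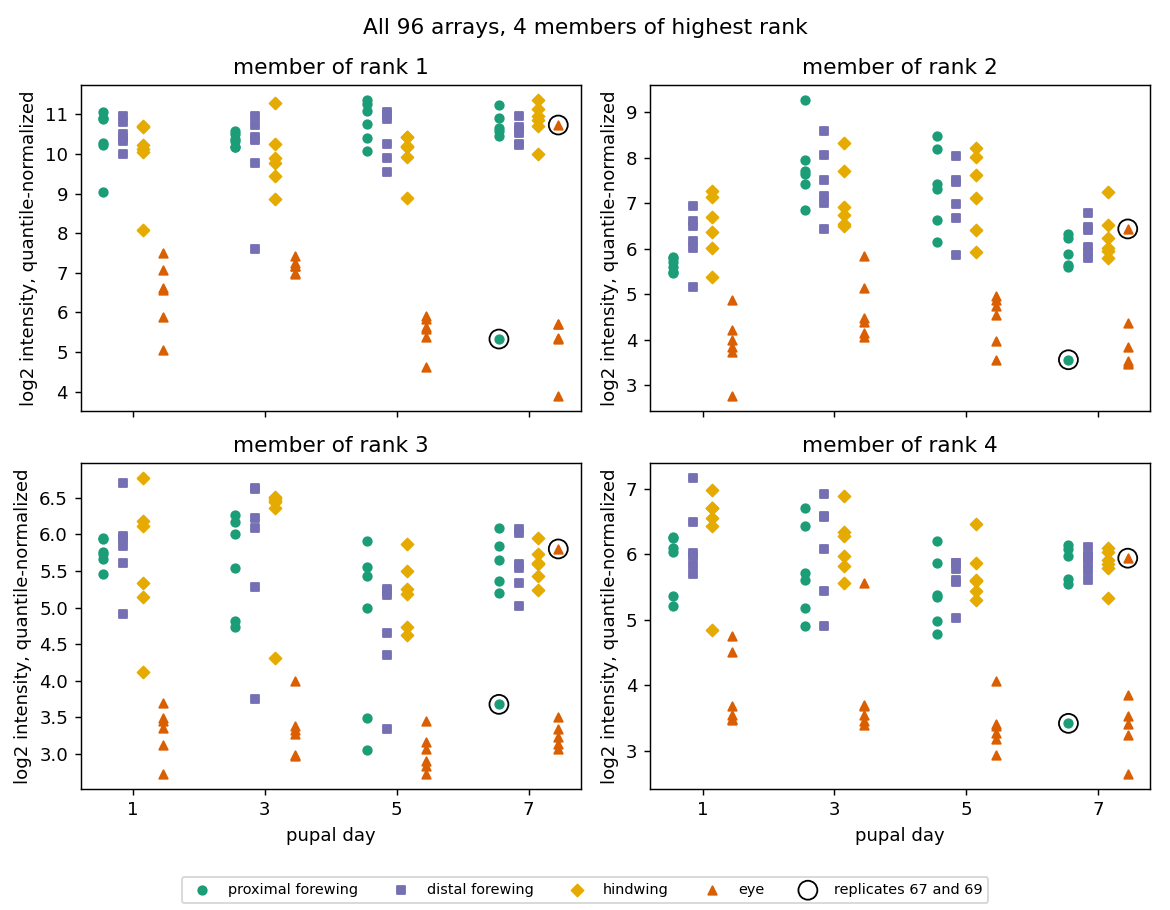
Quantile-normalized log2 intensity (vertical axis) of the 4 members of highest rank in every array, by pupal day (horizontal axis), with the 3 wing sections and the eye side by side and replicates 67 and 69 circled. On day 7 the circled eye array lies among the wing arrays and the circled proximal forewing array among or near the eye arrays in all 4 panels.

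Scaffold HE671164 holds 3 members, more than any other. HE671164 683811 to 684698, of rank 5, had the most even wing level of the set, with wing medians of 11.16, 11.13, 11.12 and 11.09, and eye medians of 9.10, 8.22, 9.49 and 9.01. Its eye arrays were widely spread, from 5.39 to 10.92 on day 3 and from 8.12 to 12.22 on day 5, and they overlapped the wing arrays on both days. Its neighbour HE671164 685011 to 697340, 313 bases further on and of rank 25, had wing medians of 12.10, 10.99, 11.55 and 12.09 and eye medians of 10.55, 10.13, 9.48 and 10.08. The lowest eye median of the first was on day 3 and that of the second on day 5. On day 3 the lowest eye arrays of the first were the dim replicates 8 and 60, at 6.63 and 5.39. Its change from day 1 to day 3 was -1.16 with all arrays. Without the 12 arrays it was 0.50, with plesseni eye day 3 resting on replicate 82. No eye step of the second was called. Whether the neighbours differ in their course was not tested.

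The remaining gene on that scaffold, HE671164 25376 to 57883 of rank 7, had wing medians of 8.43, 7.44, 7.84 and 8.08 and eye medians of 6.53, 4.79, 6.40 and 6.26. In both tissues its lowest median was on day 3. HE670602 194333 to 195496, of rank 8, had wing medians of 10.35, 9.48, 10.52 and 9.24 and eye medians of 8.36, 7.53, 8.42 and 7.60, so wing and eye moved in parallel and the difference stayed between 1.64 and 2.10. The highest wing level belonged to HE672057 98587 to 102972, of rank 6, with wing medians of 12.35, 11.64, 13.10 and 12.61 and eye medians of 10.56, 10.35, 10.96 and 9.94. Its wing and eye medians were both highest on day 5, and its difference ran from 1.29 to 2.67.

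At the other end of signal, HE670812 3244 to 7542 had the lowest wing level, with wing medians of 5.01, 5.82, 5.14 and 5.43 and eye medians of 4.14, 3.69, 3.41 and 3.83. On day 1 its wing arrays ran from 3.78 to 5.78 and its eye arrays from 3.78 to 4.28, so the groups overlapped. Over the set, mean wing signals ran from 5.35 to 12.43 and mean eye signals from 3.24 to 10.45. In 13 of 34 members the mean eye signal was under 5. As a description of the arrays and not of amounts of RNA, members had 33.6% to 97.3% of all features lower in the wing and 4.53% to 85.8% lower in the eye.

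The difference was in the median smallest on day 1, at 1.51, and stood at 1.96 on day 3, 1.87 on day 5 and 1.83 on day 7. It was largest on day 3 in 15 members, on day 5 in 10, on day 7 in 8 and on day 1 in HE672034 126452 to 150335. Day 1 had the smallest difference in 17 members. The highest of the 4 eye medians was also on day 1 in 17 members, and the lowest was on day 5 in 14 and on day 3 in 10.

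By section, the difference reached 1.5 in 23 members for the proximal forewing, 32 for the distal forewing and 28 for the hindwing. Distal forewing was above proximal forewing in 27 of 34 members, within the limit the rule set. By race, it reached 1.5 in 21 members in malleti and 29 in plesseni, and it was above 0 in all 34 in both. The labelled malleti eye and proximal forewing of day 7 include replicates 67 and 69, of which the first was the highest day 7 eye array in 30 of 34 members and the second the lowest day 7 wing array in 32. Leaving both out kept all 34 members at 1.5 or more, while the full rule then found 45 genes, 33 of them among the 34. Without the 12 arrays that stood apart, 29 of the 34 members were at 1.5 or more.

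The size of the difference depended on how the arrays were scaled. The median of all candidate genes was a wing minus eye difference of 0.17 after quantile normalization, -0.18 on the log2 scale as deposited and 0.47 after centring each array on its median. All 34 members stayed above 0 on each scale, and above the median of all candidates. At the limit of 1.5, however, 6 members remained on the deposited scale and 32 after centring. HE670797 113155 to 117101 kept 3.95 and 4.46, and its neighbours in rank HE671287 81054 to 115764, HE672034 192659 to 212135 and HE672034 126452 to 150335 kept 2.29, 2.28 and 2.15 on the deposited scale. The others at 1.5 or more there were HE672057 98587 to 102972 at 1.75 and HE670577 88870 to 118305 at 1.61, the latter named after its values were seen.

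**Figure D3:**
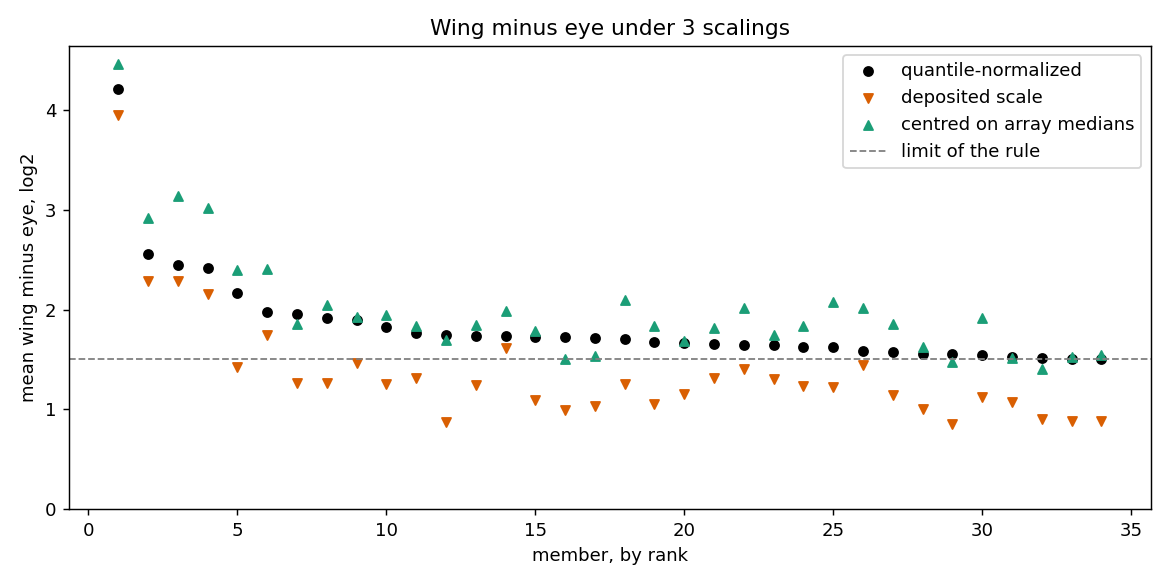
Mean wing minus eye difference on the log2 scale (vertical axis) for each member by rank (horizontal axis) after quantile normalization, on the deposited scale and after centring arrays on their medians; the dashed line marks the limit of 1.5. The 4 members of highest rank stay above 2 on every scale, while most others lie under the limit on the deposited scale.

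Of the 12639 candidates, 219 were higher in the wing by 1.5 or more. Besides the 34 members, 113 of these exceeded only the limit on the wing's change over days, 16 only the limit on distal minus proximal, and 56 both. Just inside the limit on wing minus eye were HE671365 97662 to 115475 and HE668249 15924 to 24169, both at 1.5, and just outside HE671978 113831 to 170179 and HE670796 3733 to 43438, both at 1.49. At the limit on change over days HE670740 122787 to 151495 was inside with a span of 1.494 and HE671260 596147 to 614905 outside with 1.502. At the limit on distal minus proximal HE669376 75728 to 94552 was inside with 0.39 and HE671555 15023 to 30518 outside with -0.40. These differences are far smaller than the spread between arrays, so the edge of the set is not sharp. The largest difference left out was 4.04 in HE671890 39882 to 42605, whose wing medians spanned 7.84. This gene and those at the last 2 limits were named after their values were seen. In the opposite direction 846 candidates were higher in the eye by 1.5 or more, 482 of them within the same wing limits.

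The rule did not use the comparisons that follow as such, but medians of the same arrays entered it. Eye medians of each day went into the wing minus eye difference, so low readings in some eye arrays favoured a gene. The eye comparisons of day and race are therefore not independent of the choice of members. All comparisons were tested with limma on all 12832 features and adjusted by the method of Benjamini and Hochberg over all of them. Calls were made at an adjusted p under 0.05. Race differences are plesseni minus malleti.

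Hindwing and forewing did not differ detectably in any member. Limma called 0 of 34 members and 0.0546% of all features, and 1 member, HE670838 292351 to 304059, had an unadjusted p under 0.05, as had 3.47% of all features. The member differences, averaged over races and days, ran from -0.20 to 0.39 with a median of 0.02 and a median standard error of 0.18. HE670838 292351 to 304059, named after its values were seen, had the largest of them, 0.39 ± 0.15 (SE), with an adjusted p of 0.9997 in limma.

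Race made no called difference in the wing or in the eye. In the wing limma called 0 of 34 members against 1.08% of all features, with 1 member, HE670577 88870 to 118305, and 9.72% of all features at an unadjusted p under 0.05, and member differences ran from -0.25 to 0.45. In the eye it called 0 of 34 against 0.966%, with 5 members and 18.3% of all features at an unadjusted p under 0.05. With all arrays the eye differences were negative, that is lower in plesseni, in 30 of 34 members, with a median of -0.30, a range from -0.82 to 0.26 and a median standard error of 0.29. All features had a median of 0.01 in that comparison. Without replicates 67 and 69, of which the first is counted as malleti eye, 21 members were negative and the median of the 34 was -0.11. After centring arrays on their medians 20 were negative with a median of -0.15, against 0.09 for all features, and without the 12 arrays 25 were negative with a median of -0.07. On the deposited scale the median was -0.59, against -0.35 for all features.

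The largest of these eye differences by its test was -0.80 ± 0.25 (SE) in HE670838 292351 to 304059, with a limma adjusted p of 0.086, and it was -0.64 without replicates 67 and 69. The other 4 with an unadjusted p under 0.05 were HE671365 97662 to 115475 at -0.51, HE670602 192009 to 193193 at -0.66, HE671164 25376 to 57883 at -0.70 and HE670602 194333 to 195496 at -0.68. Without the 12 arrays these 4 were -0.06, -0.36, -0.50 and 0.02, so that the last no longer pointed to lower signals in plesseni, and HE670838 292351 to 304059 was at -0.71. All 5 were named after their values were seen. The difference between the race effect in the eye and that in the wing was tested directly, and limma called 0 of 34 members against 0.0312% of all features, with 8 members and 20.1% of all features at an unadjusted p under 0.05. It was negative in 28 members with a median of -0.41, and in 23 with a median of -0.17 without replicates 67 and 69. The median was -0.16 after centring, against 0.12 for all features, and -0.06 without the 12 arrays. On the deposited scale 29 members were negative with a median of -0.64, against -0.37 for all features. Leaving out replicate 82 of plesseni eye day 3 gave 4 called members for race in the eye and 5 for this difference, which no other single array did. That group then rests on the dim replicates 8 and 60 alone. Leaving out replicate 38 gave 1 for race in the eye. Shares of all features called in these fits are not given, so nothing is read from these counts about the set.

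**Figure D4:**
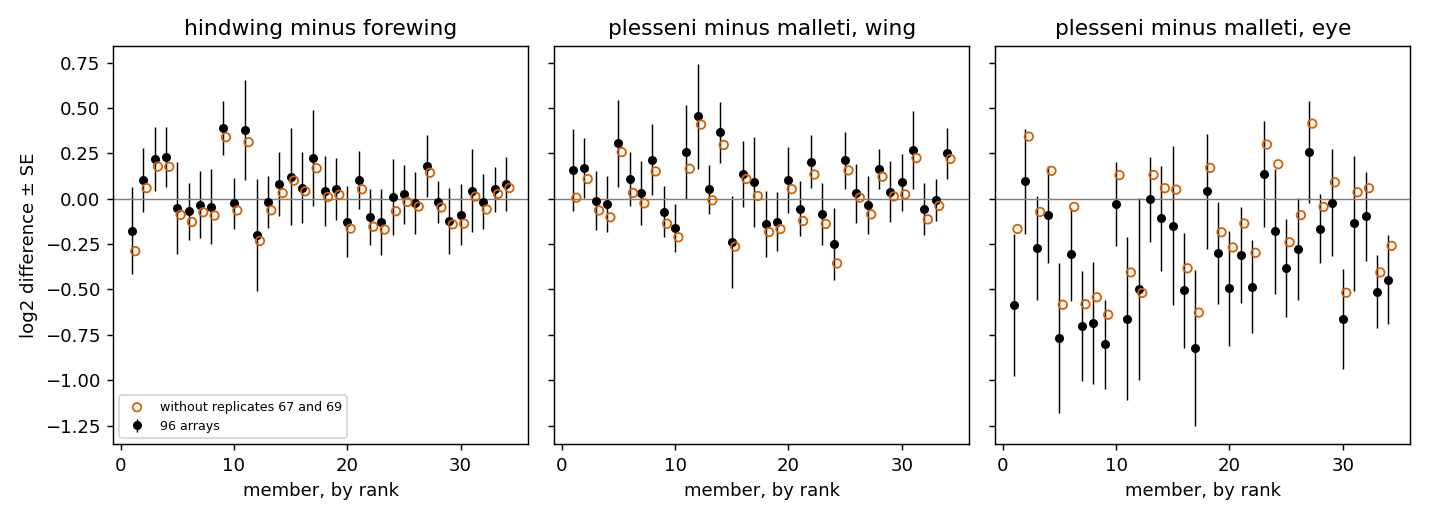
Log2 difference with its standard error (vertical axis) of each member by rank (horizontal axis) for hindwing minus forewing, race in the wing and race in the eye, with filled points for 96 arrays and open points without replicates 67 and 69. Hindwing and wing race differences scatter about 0, while eye race differences lie mostly under 0 with 96 arrays and closer to 0 without the 2 arrays.

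Over the days of the eye, 13 members had 17 called changes between successive days. From day 1 to day 3 limma called 5 of 34 members, all down, which is 14.7% of members. Of all features 9.23% were called at that step and 4.79% were called down. From day 3 to day 5 it called 8, of which 7 rose and 1 fell, or 23.5% of members. Of all features 15% were called, 6.99% up and 8.05% down. From day 5 to day 7 it called 4, of which 3 rose and 1 fell, or 11.8% of members, against 2.15% of all features, 1.05% up and 1.1% down. Between days 1 and 7 it called 0 of 34 against 17.4% of all features, with 4 members and 29.3% of all features at an unadjusted p under 0.05. The member medians of these 4 differences were -0.44, -0.07, 0.45 and -0.01, and those of all features -0.02, -0.07, 0.01 and -0.07. The last 2 member medians rest on replicate 67, since without replicates 67 and 69 they were 0.03 and -0.43, with 25 of 34 members negative between days 1 and 7. The 4 member medians were -0.36, 0.17, 0.03 and -0.48 without the 12 arrays.

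Leaving out single arrays moved these counts. The first step had 8 called members without replicate 82, where plesseni eye day 3 rests on the dim replicates 8 and 60 alone. The second had 3 without replicate 8, 3 without replicate 60, 2 without replicate 15 and 5 without replicate 90. The third had none without replicate 15, 16 or 24, 2 without replicate 45 and 1 without replicate 67. The difference between days 1 and 7 had 1 or 2 called members without replicate 14, 24, 29, 30 or 67. All of these arrays are labelled eye except replicate 14, a wing array. The counts describe the fits only, since shares of all features called in them are not given.

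The calls also varied with the scale, and few were kept when each scanner gain was fitted alone. Slides were scanned at a lower gain for 60 arrays and a higher gain for 36. Within each gain all 17 changes kept their direction but 1 and 0 passed the test. Those fits had fewer arrays and a model with a race effect shared by all days. Whether gain itself affects the calls was therefore not tested. With the slide as a block 15 of 17 were still called, on the deposited scale 7 and after centring 3, always in the same direction. On the deposited scale the median of all features moved by -0.71, 0.76 and 0.25 at the 3 steps, against -0.02, -0.07 and 0.01 after quantile normalization, so these changes are relative to the other features of the array.

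HE670797 113155 to 117101 was the 1 member that fell from day 3 to day 5 in the eye. Its eye arrays read 7.44, 6.98 and 7.00 in malleti and 7.17, 7.18 and 7.26 in plesseni on day 3, and 4.61, 5.58 and 5.84 in malleti and 5.92, 5.37 and 5.63 in plesseni on day 5. All 6 arrays of day 5 were below all 6 of day 3. The change was -1.68 ± 0.55 (SE), limma adjusted p = 0.0305. It was 0.000855 without replicates 67 and 69, and over 107 alternative settings the adjusted p ran from 0.000855 to 0.476, with the call kept in 97. It was not called without replicate 7, 8, 15, 38, 60 or 90. Of the 107 settings, 96 left out 1 array each, mostly an array of another tissue or day. The number of kept calls is largely set by such fits, here and for the other changes.

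A day 3 dip, a called fall followed by a called rise, was seen in 3 members. HE671365 97662 to 115475 read 6.24, 5.01 and 8.01 in malleti and 6.31, 6.01 and 6.10 in plesseni on day 1, then 5.86, 6.61 and 5.91 in malleti and 3.42, 3.32 and 4.90 in plesseni on day 3. On day 5 it read 6.03, 5.82 and 6.31 in malleti and 7.55, 6.25 and 6.29 in plesseni. The low readings were those of plesseni on day 3, where 3.42 and 3.32 come from the dim replicates 8 and 60. It fell by 1.28 ± 0.29 (SE) with limma adjusted p = 0.00192, and rose by 1.37 ± 0.29 with limma adjusted p = 0.000588. Without the 12 arrays the fall was -0.37 with an adjusted p of 0.4, plesseni eye day 3 then resting on replicate 82, which is assumed to vary like the other arrays; over 107 alternatives the adjusted p of the fall ran from 4.1e-05 to 0.689. The rise was 0.65 without the 12 arrays, with an adjusted p of 0.0724 and no longer called, and over 107 alternatives its adjusted p ran from 1.9e-05 to 0.478.

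In HE670602 194333 to 195496 the day 3 eye arrays read 7.59, 7.54 and 7.53 in malleti and 6.70, 3.77 and 7.74 in plesseni. On day 1 they read 8.32, 7.59 and 8.19 in malleti and 9.96, 8.40 and 9.07 in plesseni, and on day 5 10.83, 9.35 and 7.79 in malleti and 6.94, 8.55 and 8.30 in plesseni. The 3.77 of replicate 60 was the lowest and the groups of successive days overlapped. The gene fell by 1.78 ± 0.48 (SE), limma adjusted p = 0.0105, and then rose by 1.81 ± 0.48, limma adjusted p = 0.0064. Without replicate 60 neither step was called, at -1.21 and 1.24. The fall was -0.91 and not called without the 12 arrays, and the rise was 1.23 and called.

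HE671164 25376 to 57883 read 5.46, 5.24 and 5.64 in malleti and 4.35, 3.60 and 3.95 in plesseni on day 3. On day 1 it read 6.24, 7.39 and 4.65 in malleti and 6.60, 6.88 and 6.47 in plesseni, and on day 5 6.93, 7.04 and 6.19 in malleti and 3.07, 6.60 and 6.01 in plesseni. In plesseni all day 3 arrays were below all day 1 arrays, while the malleti arrays overlapped. It fell by 1.66 ± 0.43 (SE), limma adjusted p = 0.00789, and rose by 1.27 ± 0.43, limma adjusted p = 0.0356. Without the 12 arrays both steps were larger, -2.03 and 1.81, with adjusted p of 0.000251 and 0.000577, and over 107 alternatives the adjusted p ran from 0.000156 to 0.423 for the fall and from 0.000577 to 0.7 for the rise. Without replicate 51 the fall was not called, nor was the rise without replicate 7, 15, 37, 38, 59, 60 or 90.

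The other falls to day 3 were those of HE670740 122787 to 151495 and HE669376 75728 to 94552, named after their values were seen. The former read 4.90, 4.85 and 4.70 in malleti and 6.07, 4.58 and 5.62 in plesseni on day 1, and 3.94, 3.82 and 4.20 in malleti and 3.83, 3.51 and 3.71 in plesseni on day 3. All day 3 arrays were below all day 1 arrays. It fell by 1.29 ± 0.35 (SE), limma adjusted p = 0.0112, and the call was kept in 103 of 107 alternatives, among them each array left out. HE669376 75728 to 94552 fell by 0.80 ± 0.27 (SE), limma adjusted p = 0.0465, and the call was kept in 90, but not without replicate 7, 8, 29, 30, 59, 73, 74 or 81.

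Of the rises to day 5, HE671164 683811 to 684698 had the largest, 1.90 ± 0.58 (SE), limma adjusted p = 0.0203. Its day 3 eye arrays read 8.26, 8.65 and 8.19 in malleti and 6.63, 5.39 and 10.92 in plesseni, and its day 5 arrays 12.22, 9.40 and 9.59 in malleti and 10.96, 9.16 and 8.12 in plesseni. The plesseni arrays of day 3 held both the lowest and the highest reading of that day. Without the 12 arrays the change turned to -0.12 with replicate 82, at 10.92, as the only plesseni array of day 3, and without replicates 8, 15, 16 or 60 singly it was no longer called, at 1.34 to 1.65.

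The rises of HE670848 177988 to 182652 by 1.40 ± 0.40 (SE, limma adjusted p = 0.0121), HE670602 192009 to 193193 by 1.30 ± 0.39 (limma adjusted p = 0.0171) and HE670577 88870 to 118305 by 1.27 ± 0.41 (limma adjusted p = 0.027) complete the step, the first and the last named after their values were seen. HE670602 192009 to 193193 read 10.48, 10.46 and 10.41 in malleti and 8.73, 9.50 and 10.38 in plesseni on day 3, and 12.62, 11.40 and 10.91 in malleti and 11.31, 10.22 and 11.29 in plesseni on day 5. The days overlapped through the 10.22 of replicate 38 only. HE670848 177988 to 182652 had its day 3 arrays between 6.36 and 8.63 and its day 5 arrays between 7.10 and 9.89, with 8.63 in replicate 82. Without the 12 arrays the rise of HE670848 177988 to 182652 was 0.24 and that of HE670602 192009 to 193193 was 0.78, neither of them called, while that of HE670577 88870 to 118305 was 1.66 and called. With single arrays left out, HE670848 177988 to 182652 was not called without replicate 8, 15, 16 or 60, HE670602 192009 to 193193 not without 8 or 15, and HE670577 88870 to 118305 not without 8, 15, 59, 82 or 90.

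HE670602 192009 to 193193 was also the member that fell from day 5 to day 7, by 1.44 ± 0.39 (SE), limma adjusted p = 0.0321. On day 7 its arrays read 10.51, 9.82 and 11.90 in malleti and 8.14, 9.65 and 9.08 in plesseni, and the 11.90 was that of replicate 67. Without replicates 67 and 69 the fall was -1.73 with an adjusted p of 0.00568, while over 107 alternatives the adjusted p ran from 1e-06 to 0.764 and the call was kept in 96, but not without replicate 15, 16, 23, 24, 45 or 90. Of its arrays on day 7 without replicate 67 all but the 10.51 of replicate 23 were below all day 5 arrays.

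The rises from day 5 to day 7 were 1.57 ± 0.45 (SE) in HE671616 12851 to 32335, 1.41 ± 0.39 in HE669537 51517 to 102553 and 1.24 ± 0.33 in HE671341 347584 to 381075, with limma adjusted p of 0.046, 0.0401 and 0.0278. The last was named after its values were seen. In HE671341 347584 to 381075 the day 7 arrays read 5.05, 5.34 and 7.12 in malleti and 6.74, 5.05 and 5.16 in plesseni, and the day 5 arrays 3.53, 4.54 and 4.41 in malleti and 5.05, 4.94 and 4.55 in plesseni. The 2 highest readings of day 7 came from replicates 67 and 24. Without replicates 67 and 69 the 3 rises were 1.32, 1.10 and 0.92, with adjusted p of 0.129, 0.13 and 0.112, and none was called. Over 107 alternatives the adjusted p ran from 0.0133 to 0.752, from 0.0132 to 0.594 and from 0.0092 to 0.662. All 3 calls were also lost without replicate 15, 16, 24 or 67 alone, the first 2 without replicate 45, and that of HE671616 12851 to 32335 without 3, 7, 25 or 35.

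**Figure D5:**
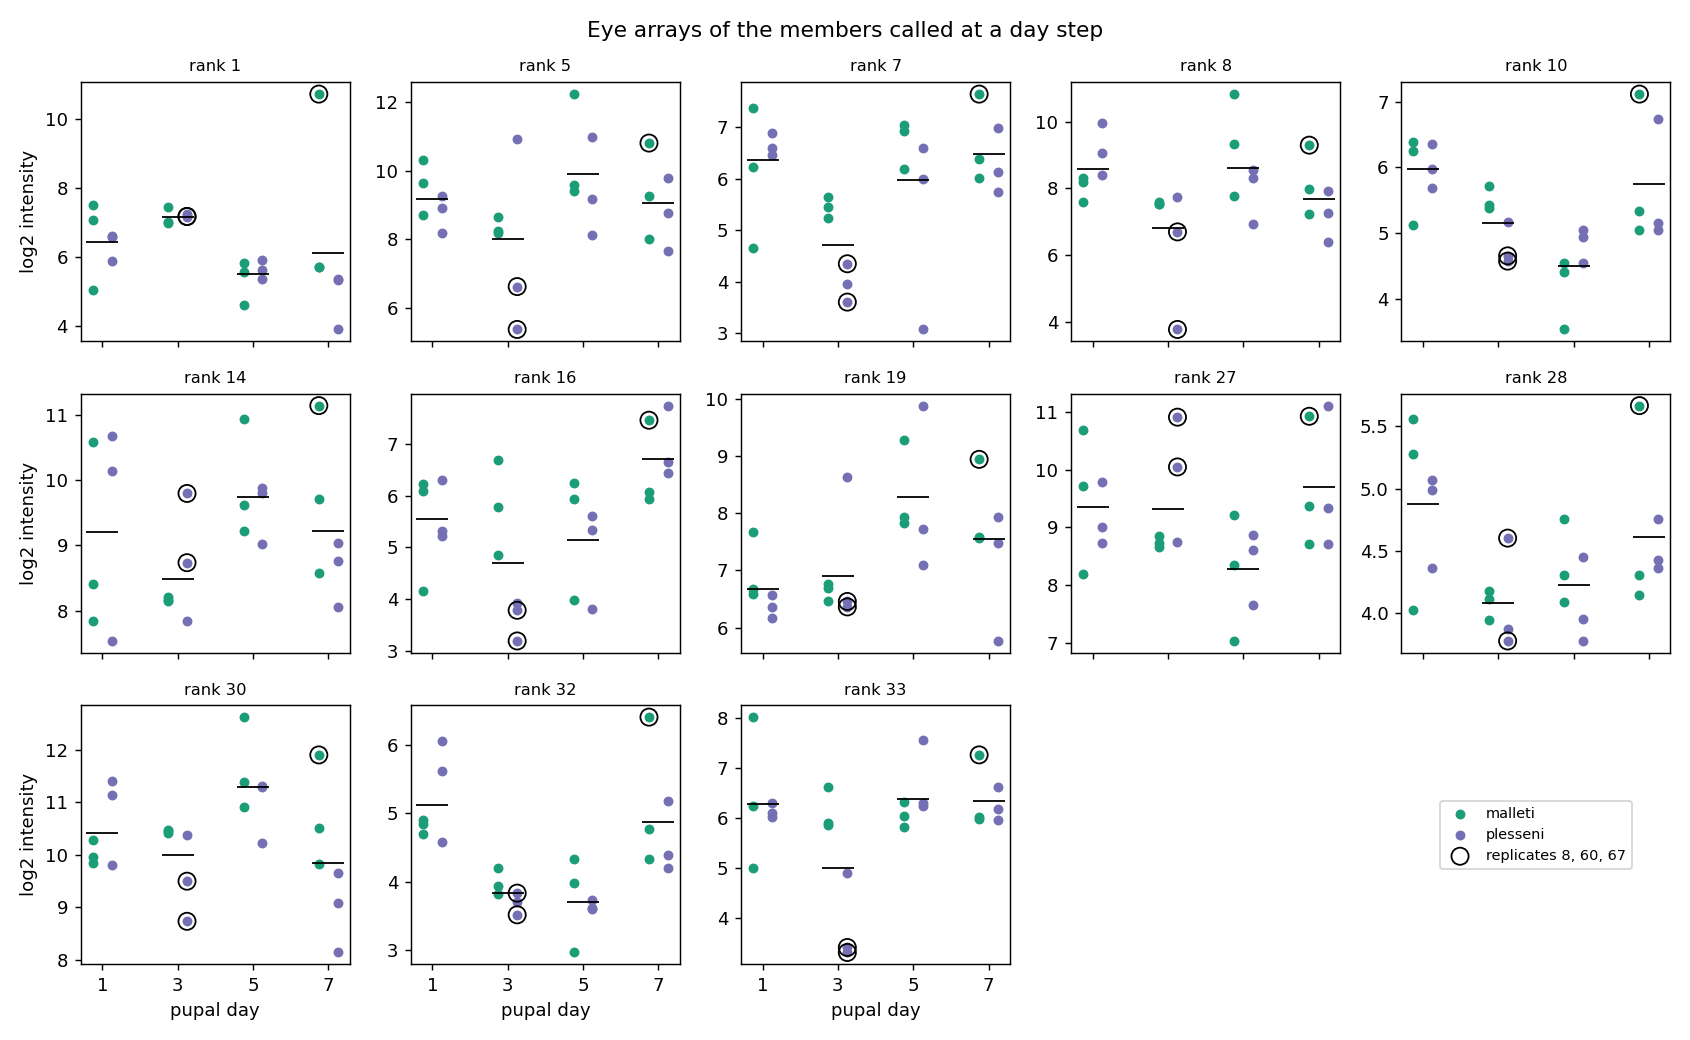
Log2 intensity after quantile normalization (vertical axis) of the 6 eye arrays of each pupal day (horizontal axis) for the 13 members with a called change between days, 1 panel each, with black bars for the mean of the day and replicates 8, 60 and 67 circled. The member of rank 1 is level on day 3 and lower in all arrays on day 5, and the circled array of day 7 is the highest or nearly the highest in each panel.

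Members were spread over the genome assembly, on 29 scaffolds, and 4 scaffolds held 2 or 3 of them. Besides the pairs on HE672034 and HE671164, HE670602 192009 to 193193 and HE670602 194333 to 195496 lie side by side with 1140 bases between them, and they had differences of 1.54 and 1.92. HE670577 74618 to 79148 and HE670577 88870 to 118305, at 1.64 and 1.73, are separated by 1 feature, HE670577 80661 to 85890, with a wing minus eye difference of 1.03 and a wing span of 1.55. The pairs on HE670602 and HE670577 were named after their values were seen. HE670577 74618 to 79148 overlaps HE670577 68128 to 76198, which was higher in the eye by a wing minus eye difference of -2.42, so the signal of either may hold some of the other's.

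Next to members, 51 places on the scaffolds are held by features that are not members, where the feature between the pair on HE670577 counts for both. Of these places 42 were higher in the wing, and 5 reached 1.5, as did 219 of the 12639 candidates. Their median wing minus eye was 0.40, against a median of 0.17 among all candidates, of which 65.4% were higher in the wing. No test of this difference was made.

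Members were measured by 9 probes each, as were 90.6% of candidates. The predicted genes of the set were long, with a median of 17495 bases from start to end (888 to 51037), against 5109 in all candidates, and 24 of 34 were longer than that median. The 482 genes higher in the eye within the same wing limits had a median of 5976 bases, the 113 that exceeded only the limit on change over days 7190, and the 16 that exceeded only the limit on distal minus proximal 8982. These lengths are spans of the array's gene models, and nothing was tested on them.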

How the data were processed

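The authors deposited 1 linear intensity per feature and array. Per the submitters' processing notes these were made with RMA, with no version named. The sources used here name neither its settings nor the genome build. Groups were taken from the labels. The deposited intensities were not on a common scale, so their log2 values were quantile-normalized over 96 arrays with limma 3.58.1 in R 4.3.3. One linear model with 32 group means (64 residual degrees of freedom) was fitted to 12832 features, contrasts were tested with limma's eBayes, two-sided, and p-values were adjusted over all features within each of 8 contrasts with a threshold of 0.05. The members and lists, and the arrays that stood apart, were chosen with earlier results of these data known. An array stood apart if its median log2 intensity was under 5.5 or if its Spearman correlation with another kind of tissue exceeded that with its own by over 0.05. Features named by rule were the first 8 by wing minus eye, the last 2 members and first 2 outside, for each contrast the 2 called members with the largest change each way, the extremes of wing level and of spread over days, and members of the scaffold with the most of them; others are marked in the text. Alternatives were log2 of the deposited intensities, arrays centred on their medians, a block for the slide, each scanner gain alone, no dimmest 25% of features, trend and robust eBayes, array weights, only the groups compared, and each array left out. The procedure was tested on simulated data. Array number, 3 a group, limits the precision.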

Additional observations from a re-analysis of the deposited data

How the results depend on the processing

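No paired analysis was made, because the sources used here do not say which sections came from the same pupae. Any such pairing is therefore left out of the tests. Of 1819 repeated values for the called changes under the alternatives, 1662 kept their direction and their call, and 156 kept their direction but lost the call. The other, HE671164 683811 to 684698 from day 3 to day 5 in the eye, turned to -0.123 without the 12 arrays that stood apart. That alternative was chosen after seeing the data, as were leaving out replicates 67 and 69 and lifting a limit of the rule. Most alternatives left out 1 array, usually from a tissue or day outside the change, so the number kept is largely set by such fits. Array weights, whose fit stopped before convergence, gave 1 called member for hindwing against forewing and 1 for race in the wing. They gave 3 for race in the eye and 3 for its difference from race in the wing. For eye day 3 against day 1 they gave 8, and for eye day 7 against day 1 they gave 14. The main fit called 9.23% and 17.4% of all features for these 2 eye comparisons. Shares of all features called with array weights are not given, so nothing is read from these counts about the members. For eye day 3 against day 1 the count of 5 became 1 on the deposited scale, 0 after centring, 1 and 0 within the lower and the higher gain, 0 with only the compared groups in the fit and 3 without the 12 arrays. For eye day 5 against day 3 the count of 8 became 3 after centring, 1 and 0 within the gains, 1 with only the compared groups and 4 without the 12 arrays. For eye day 7 against day 5 the count of 4 became 0 on the deposited scale and after centring, and 1 without replicates 67 and 69. Of all features 276 were called in the main fit, and 31, 93 and 152 in these 3 settings. The member count was also 0 within either gain and with only the compared groups. For eye day 7 against day 1 the count of 0 became 1 on the deposited scale and 3 without replicates 67 and 69. Of all 12832 features 2227 were called in the main fit, 849 on the deposited scale and 2295 without replicates 67 and 69. Leaving out each array in turn gave 0 called members throughout for hindwing against forewing and race in the wing, 0 to 4 for race in the eye, 0 to 5 for its difference from the wing, 4 to 8, 2 to 10 and 0 to 5 for the successive eye steps and 0 to 2 for day 7 against day 1. The rule found 6 members on the deposited scale, of which 5 were among the 34, and 84 after centring (29 shared). It found 35 at the lower gain alone (18 shared) and 60 at the higher gain alone (23 shared). Without the 12 arrays it found 47 (24 shared), and without replicates 67 and 69 it found 45 (33 shared). There were 22 with means in place of medians (16 shared) and 147 without the limit on wing change over days (34 shared). There were 30 to 42 in the fits with 1 array left out. Of the 34 members, 22 were found in all 96 of the latter, HE671365 97662 to 115475 in 57 and HE668249 15924 to 24169 in 48. Shares of all features called are not given for the fits within a gain, with only the compared groups or with 1 array left out. Those counts are not read as a result about the set. Causes of these changes were not tested. The alternative with only the compared groups could give no other value for the difference of race effects, which uses all groups. Signal over background is unknown, since no detection calls were used.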
